A study of Rattus norvegicus with 20 samples.

Results

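The comparison covered 11 of the 20 arrays of a rat study of isoflurane, a volatile anaesthetic. An array belonged to the set if its Pcp2 signal lay above 12 on the log2 scale, Pcp2 being a transcript of Purkinje cells in the cerebellum. The rule took 5 of 10 isoflurane arrays (replicates 1, 3, 7, 8 and 9) and 6 of 10 oxygen arrays (replicates 5 to 10). The rats were Sprague Dawley males of 20 weeks and 250 to 300 g, and they breathed either pure oxygen or oxygen carrying 2% isoflurane (1.4 MAC, the unit of anaesthetic potency) for 15 minutes, and their brains were taken after 6 hours of recovery. All groups thus shared the oxygen exposure and the recovery, and each array was labelled as one biological replicate of a rat's brain cortex. The design text gives as its purpose expression profiles from which networks could be built.

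The cerebellum holds a small number of cell types in a fixed circuit: granule cells excite Purkinje cells through parallel fibres, inhibitory interneurons shape that input, and Bergmann glia, a cerebellar astrocyte, wrap the synapses. Isoflurane enhances GABA-A and glycine receptors, dampens glutamate receptors and opens K2P leak potassium channels. Transcripts measured hours after a short exposure can differ in genes of activity, stress, energy supply and protein turnover as well as in those targets.

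The arrays carried cerebellar transcripts although their tissue label was cortex. Pcp2 lay between 13.60 and 14.17 in this set and between 4.46 and 10.67 on the other 9 arrays, the lowest array inside the rule being oxygen replicate 7 and the highest outside it isoflurane replicate 10. Because Pcp2 chose the arrays, its lack of overlap was fixed by the rule. Gabra6, a GABA-A receptor subunit specific to granule cells, had its lowest value in the set at 13.40 and its highest at 14.10, and did not pass 10.70 elsewhere. Cbln1, a synapse organiser released by granule cells, lay between 13.09 and 13.38 against at most 9.98. Of 26 measured granule cell markers, 24 were higher on each of the 11 arrays than on any of the 9, and so were 16 of 20 Purkinje cell markers, a list that includes Pcp2. Of 22 measured cortical neuron markers, 20 were lower on each of the 11 arrays than on any of the 9. Among all 14217 genes, 1134 were higher in this way and 1166 lower. Signals here are array intensities on the log2 scale, so a difference of 1 is a fold of 2. In tissue RNA of this kind, fewer cells of a type and less RNA per cell cannot be told apart.

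The 11 arrays were not uniform, and the unevenness crossed the groups. The mean level of the 20 defining cortical markers was 7.43, 7.84, 7.18, 8.60, 8.85 and 8.86 on oxygen replicates 5 to 10 in that order. On isoflurane replicates 1, 3, 7, 8 and 9 it was 7.28, 7.35, 7.54, 7.52 and 8.60. Oxygen replicates 8, 9 and 10 and isoflurane replicate 9 therefore stood above the rest. The 20 are the listed markers whose 11 values all lay below those of the other 9 arrays, so their level is read only among the 11. The 3'/5' ratio of control transcripts, a measure of RNA integrity that grows as transcripts lose their 5' ends, averaged 1.31, 1.04, 1.23, 0.94, 0.82 and 1.29 (log2) on the oxygen arrays and 0.93, 0.75, 0.79, 0.84 and 1.34 on the isoflurane arrays. Isoflurane replicate 9 had the highest ratio of the 11 arrays, and the other 4 isoflurane arrays were among the lower ones. Oxygen replicates 5 and 7 and isoflurane replicate 9 formed a trio with a dim bright end: their brightest probe set reached 14.32 to 14.41, against 14.92 to 15.30 on the other 8. These 3 arrays correlated at 0.976 to 0.982 with each other and at 0.934 to 0.968 with the other 8. Oxygen replicate 10 stood apart from all others, with correlations of 0.919 to 0.949. Each array represents one rat, so the tests below measure the spread between rats together with these array differences.

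**Figure D1:**
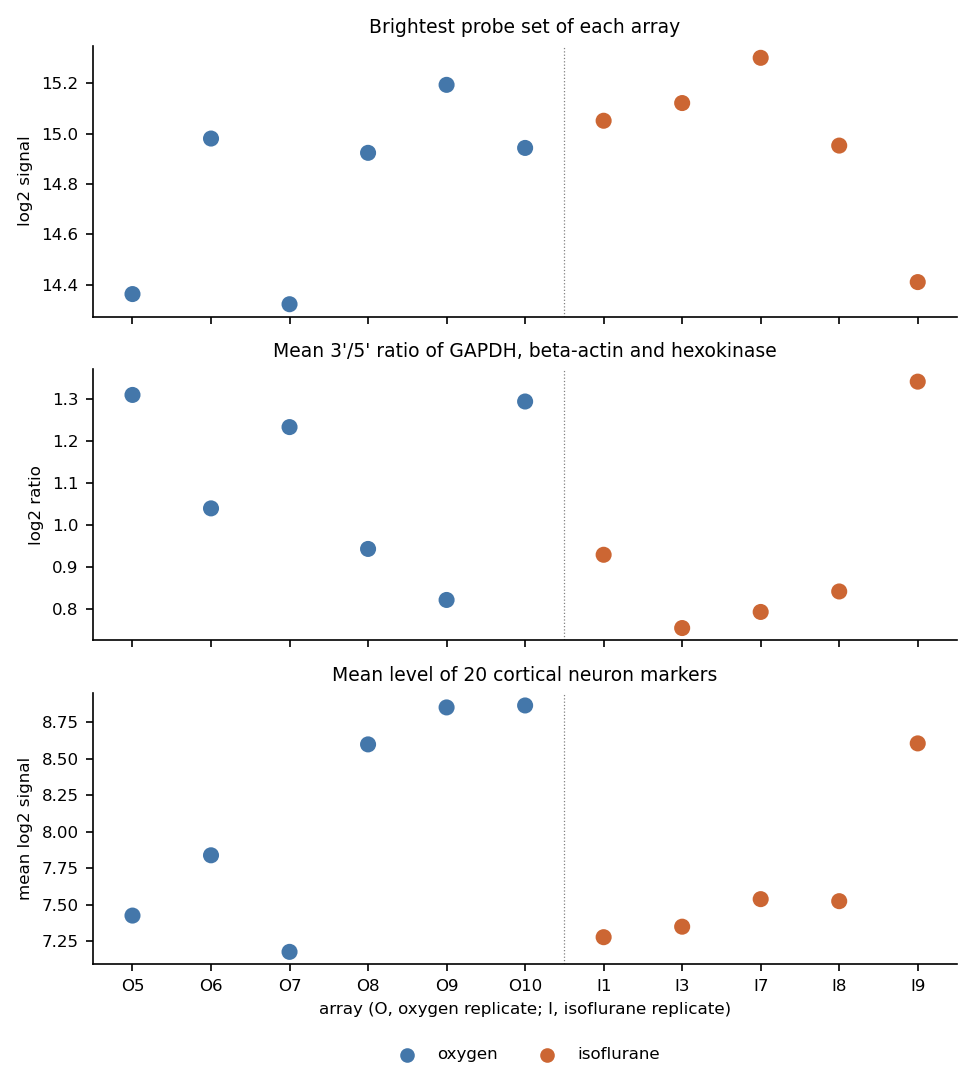
The 11 arrays by 3 measures: the log2 signal of the brightest probe set, the mean log2 3'/5' ratio of 3 control transcripts, and the mean log2 level of 20 cortical neuron markers. Points are single arrays, blue for oxygen and orange for isoflurane, and isoflurane replicate 9 (I9) sits at 14.41, 1.34 and 8.60, away from the other 4 isoflurane arrays in each panel.

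The 3'/5' ratio was compared between the groups on each control transcript. For hexokinase it was 1.64 ± 0.42 (SD, n = 6) under oxygen and 1.31 ± 0.45 (SD, n = 5) after isoflurane on the log2 scale. An exact two-sided permutation test over all 462 splits of the arrays gave p = 0.249 for hexokinase, 0.223 for beta-actin and 0.271 for GAPDH, each 0.271 after Benjamini-Hochberg adjustment over the 3 transcripts. In each case 4 of 5 isoflurane arrays lay below the oxygen mean and replicate 9 lay above it. With replicate 9 left out, the difference was -0.52 for hexokinase, -0.18 for beta-actin and -0.14 for GAPDH, with an adjusted exact permutation p of 0.0667 for each.

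No gene separated isoflurane from oxygen past the threshold when all 11 arrays were used. In limma's moderated test over 31042 probe sets, 0 passed a Benjamini-Hochberg adjusted p of 0.05 (0%), the lowest adjusted p being 0.315, and 3089 had an unadjusted p under 0.05. Array weights, which give less weight to noisy arrays, called 16 probe sets (1 higher and 15 lower), and a fit that took its spread from all 20 arrays called 1. The absence of calls does not show that differences were absent.

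Among the genes named below without a call, values are therefore given as differences with their standard errors and not as changes. In 106 probe sets all 5 isoflurane arrays lay above all 6 oxygen arrays (0.341% of 31042), and in 148 they lay below (0.477%). Isoflurane replicate 9 was the isoflurane array nearest to the oxygen arrays in 111 of these 254 probe sets, and each of the other 4 was in 24 to 53. The genes named from these sets were the 12 with the largest difference in each direction among genes with a mean signal above the 40th percentile, each gene read on its brightest probe set. The separation of the groups is what chose them. These limits left out larger or similar differences, of which 3 also appear among the 16 calls with array weights and are named after their values were seen. Col5a3, a fibrillar collagen, lay between 2.81 and 5.67 after isoflurane and between 6.17 and 6.82 under oxygen, a difference of -2.87 (SE 0.46) at low signal. Tet3, a DNA demethylase, and Ncam1, a neural adhesion molecule, differed by -0.74 (SE 0.14) and -0.62 (SE 0.11) on these probe sets, and in all 3 genes the groups did not overlap. On the other 9 arrays Col5a3 was also lower after isoflurane, at -1.34, while Tet3 and Ncam1 had the other sign, at 0.97 and 0.32.

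Of the 12 named genes on the lower side, Abca7 had the largest difference. Abca7, a lipid transporter of the ABC family, had a lowest, median and highest signal of 8.89, 9.08 and 9.39 under oxygen. After isoflurane it stood at 8.44, 8.20, 7.90, 8.20 and 8.81 on replicates 1, 3, 7, 8 and 9. Its difference was -0.79 (SE 0.15, limma adjusted p = 0.315), and replicate 9 lay closest to the oxygen arrays. Vegfb, a member of the vascular endothelial growth factor family, had 9.11, 9.29 and 9.50 under oxygen and 8.87, 8.27, 8.62, 8.40 and 8.55 after isoflurane. It had the lowest unadjusted p of all probe sets (1.6e-05), with a difference of -0.75 (SE 0.12), a signal 1.69 times lower. Unlike Abca7, its value on replicate 9 lay in the middle of the isoflurane arrays, and its difference was -0.76 without that array.

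Fa2h makes the 2-hydroxylated sphingolipids of myelin. Its oxygen arrays had a lowest, median and highest signal of 10.06, 10.21 and 10.56. Its isoflurane arrays stood at 9.47, 9.59, 9.73, 9.58 and 9.92, a difference of -0.59 (SE 0.11, limma adjusted p = 0.315) that was 5 of 5 arrays below the oxygen range. Nkx6-2, a transcription factor of oligodendrocytes, was also lower, at 6.68 ± 0.32 (SD, n = 5) against 7.34 ± 0.27 (SD, n = 6). Nlgn2, the neuroligin of inhibitory synapses, differed by -0.68 (SE 0.19), from a mean of 8.35 to 7.67. Nav2, a regulator of neurite outgrowth, differed by -0.69 (SE 0.15), and its replicate 9 value of 8.06 lay just under the lowest oxygen value of 8.08. The remaining lower genes were Col27a1 (a fibrillar collagen, -0.67), Mtcl2 (a microtubule crosslinker, -0.62), Klhdc8a (-0.59), Tlcd3a (-0.57), Nalf2 (a subunit of the NALCN sodium leak channel, -0.56) and Mapk7 (the kinase ERK5, -0.52). Of these 12 lower genes, 3 (Abca7, Vegfb and Fa2h) shared the lowest adjusted p, 0.315.

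The higher set was led by Gulp1, an adaptor of phagocytosis. Its oxygen arrays had a lowest, median and highest signal of 8.91, 9.99 and 10.05, the lowest being oxygen replicate 10, and its isoflurane arrays stood at 10.53, 10.46, 10.51, 10.64 and 10.14. The difference was 0.65 (SE 0.19, limma adjusted p = 0.432). Ndufb8, a subunit of respiratory complex I, was tighter: oxygen 9.46, 9.52 and 9.66, and isoflurane 10.06, 10.04, 10.18, 10.56 and 9.84, with a difference of 0.60 (SE 0.11, limma adjusted p = 0.315). Eif4a1, the RNA helicase of translation initiation, had a mean of 11.18 ± 0.33 (SD, n = 6) under oxygen and 11.63 ± 0.08 (SD, n = 5) after isoflurane, with oxygen replicate 10 again lowest at 10.54. Aspa, the oligodendrocyte enzyme that splits N-acetylaspartate, was higher by 0.42 (SE 0.10), the opposite side from Fa2h and Nkx6-2. Yaf2 (a polycomb component, 0.50), Stard6 (a lipid transfer protein, 0.49), Mybl1 (a transcription factor, 0.48), Tvp23b (0.44), Rbm48 and Snrpb2 (splicing factors, both 0.43), Lyn (a Src-family kinase, 0.42) and Ramp3 (a partner of calcitonin-family receptors, 0.36) completed the set. Another probe set had the opposite sign for Lyn and the same sign for Yaf2, Nav2 and Nlgn2.

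**Figure D2:**
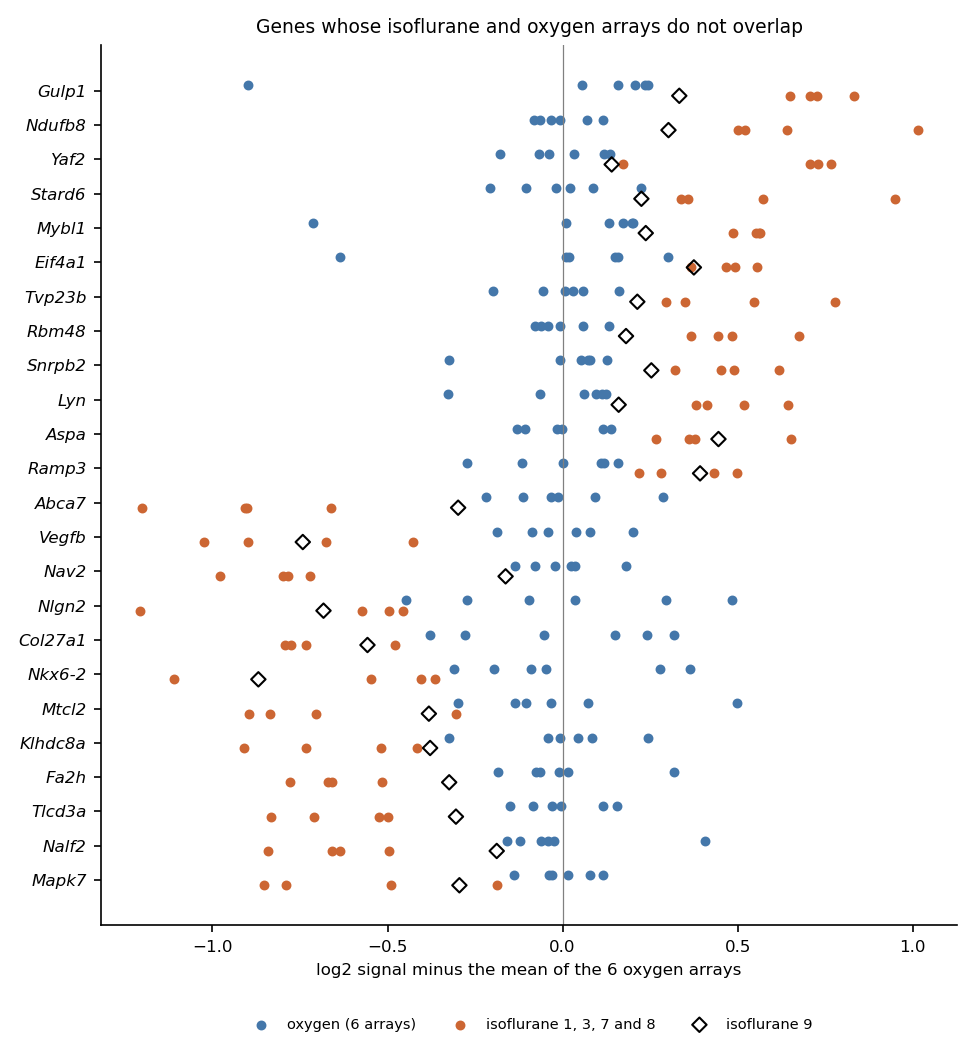
Log2 signal of the 24 named genes whose isoflurane and oxygen arrays do not overlap, each shown as the distance from its mean over the 6 oxygen arrays. Blue points are oxygen arrays, orange points isoflurane replicates 1, 3, 7 and 8, and open diamonds isoflurane replicate 9, which is the isoflurane value nearest to oxygen for Abca7, Nav2 and Ndufb8 but not for Vegfb, Nkx6-2 or Ramp3.

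The other 9 arrays, which the rule left out, gave these probe sets an independent set of rats. Of the 254 probe sets, 113 had the same sign of isoflurane minus oxygen there (44.5%), against 51.2% of all probe sets. For the higher ones the share was 49.1%, against 56.1% of all probe sets with a positive difference, and for the lower ones 41.2% against 46.2%. The non-overlapping probe sets therefore did not keep their sign more often than the rest. Vegfb, Fa2h and Nalf2 were lower in both sets of arrays, with -0.78, -0.66 and -0.81 (log2) in the 9 beside -0.75, -0.59 and -0.56 in the 11. Vegfb and Fa2h had been named in advance with earlier results of these data known, so their shared sign is a description. For Nlgn2, Col27a1 and Nav2 the 9 arrays had the other sign, with 0.99, 0.93 and 0.55.

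Whether isoflurane minus oxygen differed between the 11 and the other 9 arrays was tested as an interaction over all 20. At an adjusted p of 0.05 in limma, 2226 probe sets passed (7.17%), 410 with the larger value in the 11 arrays and 1816 with the smaller. The 24 genes above were chosen for a large difference in the 11 arrays, which is part of the interaction, so its values for them are a description and no independent test. It passed the threshold for 7 of them. It was 1.14 (SE 0.31) for Gulp1 and 0.78 (SE 0.19) for Tvp23b. On the lower side it was -1.67 (SE 0.32) for Nlgn2, -1.60 (SE 0.32) for Col27a1, -1.23 (SE 0.29) for Nav2, -1.03 (SE 0.27) for Abca7 and -1.02 (SE 0.26) for Mtcl2. For Vegfb it was 0.03 (SE 0.23, limma adjusted p = 0.965) and for Fa2h 0.07 (SE 0.18, limma adjusted p = 0.852). Beside these values, 4 of the 5 isoflurane arrays among the 9 (replicates 2, 4, 5 and 6) had hexokinase 3'/5' ratios of -0.75 to -0.27 (log2), against 0.84 to 2.47 on the other 16 arrays of the study. Their beta-actin ratios went the other way, from 2.30 to 2.86 against at most 1.98 on the other 16. The part of these ratios in the interaction was not tested. The count also moved with single arrays: it was 1157 when isoflurane replicate 6 was left out and 4992 when replicate 10 was.

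Isoflurane replicate 9 lay near the oxygen arrays for many genes, and it was chosen by its values to be left out, so what follows is a description. The other 4 isoflurane arrays lay above all oxygen arrays in 929 probe sets and below all of them in 1335. In 708 and 963 of these, replicate 9 fell inside the oxygen range. Without it, limma called 702 probe sets at an adjusted p of 0.05, 118 higher (0.38%) and 584 lower (1.88%). Leaving out any other single array left 0 calls.

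The genes that showed this pattern most were chosen by it: replicate 9 within the oxygen range and the other 4 isoflurane arrays outside it. Arhgap33 stood at 6.96, 6.93, 6.80 and 6.93 on isoflurane replicates 1, 3, 7 and 8 and at 8.83 on replicate 9. Its oxygen arrays had a lowest, median and highest signal of 8.01, 8.52 and 9.05, so its difference was -1.63 without replicate 9 and -1.25 with it. Dlgap3, a postsynaptic density scaffold, stood at 8.00, 7.99, 7.90 and 8.03 and at 9.93 on replicate 9, with oxygen values of 8.82 to 10.13. Within the oxygen group the highest values of Dlgap3 were on replicates 5, 7 and 10, the arrays with the highest 3'/5' ratios. Leng8 (another probe set of which had the opposite sign), Sp2, Nfic, Ptpn23, Celsr2 and Wiz were also low on the same 4 isoflurane arrays, with differences of -1.22 to -1.45 without replicate 9 and -0.84 to -1.12 with it. Sp2 and Nfic are transcription factors, Wiz a zinc finger protein of chromatin, Celsr2 an adhesion cadherin and Ptpn23 an endosomal phosphatase.

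In the other direction, Frg1, a nuclear protein tied to RNA processing, stood at 9.09, 8.89, 8.93 and 8.79 on the 4 isoflurane arrays and at 7.81 on replicate 9. Its oxygen arrays had a lowest, median and highest signal of 7.29, 8.01 and 8.38. Far1 (a fatty acyl reductase of ether lipid synthesis), Mettl18 (a histidine methyltransferase), Ik (a splicing factor), Nat8f3, Chm (a Rab escort protein), Nsmce4a (a subunit of the SMC5/6 complex) and Exoc1 (an exocyst subunit) were 0.72 to 0.97 higher without replicate 9 and 0.49 to 0.69 higher with it. In Far1, Chm and Exoc1, oxygen replicate 10 was the lowest oxygen array and oxygen replicate 5 the next.

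**Figure D3:**
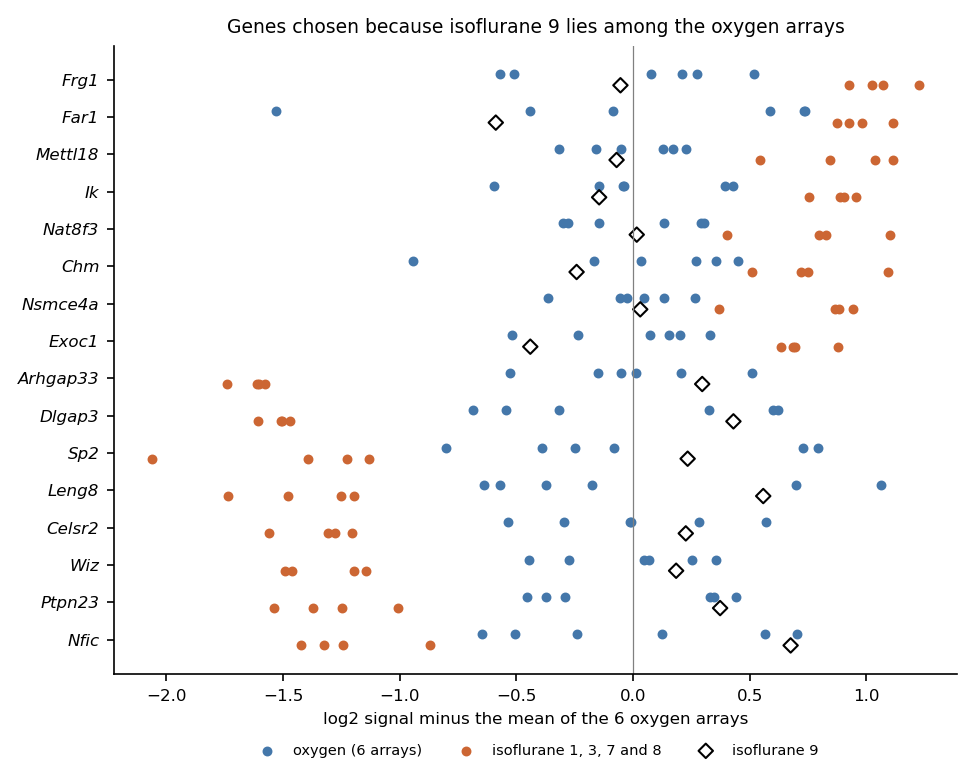
Log2 signal of 16 genes chosen because isoflurane replicate 9 lies within their oxygen range and the other 4 isoflurane arrays outside it, each shown as the distance from the gene's mean over the 6 oxygen arrays. Blue points are oxygen arrays, orange points isoflurane replicates 1, 3, 7 and 8, and open diamonds isoflurane replicate 9; the 4 orange points of Arhgap33 lie together, their log2 signals being 6.80 to 6.96.

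The number of calls without replicate 9 depended on the covariate used. With the mean 3'/5' ratio as a covariate and replicate 9 left out, limma called 0 probe sets, and 2729 had an unadjusted p under 0.05. The lowest adjusted p in that limma fit was 0.0551, just over the threshold. Without replicate 9 the ratio ran from 0.75 to 0.93 after isoflurane and from 0.82 to 1.31 under oxygen. The ratio thus went largely with the group, and its part in the 702 calls was not tested. With the cortical marker level as the covariate instead, 2062 were called, 602 of the 702 among them. Replicate 9 was also set against oxygen replicates 5 and 7, the arrays most like it. A fit that used none of these 3 arrays called 174 probe sets, 22 higher (0.0709%) and 152 lower (0.49%), and 137 of these were among the 702. On 64 of the 174, replicate 9 lay on the same side of the mean of oxygen replicates 5 and 7 as the fit's direction (36.8%, against 48.9% of all probe sets). The median difference of the 174 was 0.80 in size in that fit, and replicate 9 minus the mean of the 2 oxygen arrays had a median of -0.07 in the direction of the fit. Oxygen replicates 5 and 7 were taken for their likeness to replicate 9, which favours a small difference. The values of replicate 9 are therefore a description of a single array.

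Gene lists were read by counts and medians, with a gene represented by its brightest probe set. Of 14217 genes, 574 were higher at an unadjusted p under 0.05 (4.04%) and 1025 lower (7.21%), 7066 had a positive difference, and the median difference was 0.00. Since no gene passed the adjusted threshold, the counts below are of unadjusted p.

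Chaperones that fold cytosolic and mitochondrial proteins were the list whose isoflurane and oxygen arrays did not overlap, out of 30 lists. Of 46 measured genes, 37 had a positive difference, 13 were higher at an unadjusted p under 0.05 and 1 was lower, with a median of 0.15. The median was 0.11 after quantile normalization and 0.11 with the 3'/5' ratio as a covariate. On the other 9 arrays the median of this list had the other sign, at -0.20. Taken array by array as the median distance from the oxygen means, the list stood at 0.12, 0.17, 0.18, 0.18 and 0.06 on isoflurane replicates 1, 3, 7, 8 and 9. Its oxygen arrays ran from -0.04 to 0.04, below each isoflurane array. The members with the lowest p were Cct6a, Cct8 and Cct7, subunits of the TRiC ring that folds actin and tubulin. Cct6a had a lowest, median and highest signal of 11.36, 11.62 and 11.74 under oxygen and stood at 11.80, 11.77, 11.98, 11.95 and 11.91 after isoflurane, a difference of 0.29 (SE 0.08, limma adjusted p = 0.432). Cct8 and Cct7 were higher by 0.22 each, and replicate 9 overlapped oxygen in both. Hspa1a, the stress-inducible Hsp70, was at 7.91 ± 0.35 (SD, n = 6) and 7.92 ± 0.20 (SD, n = 5), a difference of 0.01 (SE 0.17).

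Genes of protein synthesis, respiration and protein breakdown leaned to the higher side on 4 isoflurane arrays and to the lower side on the trio with the dim bright end. Of 73 oxidative phosphorylation genes, 72 had a positive difference, with a median of 0.15, and 11 were higher at an unadjusted p under 0.05 with 0 lower. Array by array they stood at -0.17, 0.05, -0.19, 0.06, 0.10 and 0.13 on oxygen replicates 5 to 10 and at 0.10, 0.19, 0.29, 0.29 and -0.11 on isoflurane replicates 1, 3, 7, 8 and 9. The low arrays were oxygen 5 and 7 and isoflurane 9. Of the 100 probe sets brightest on the other 8 arrays, 90 were dimmer on each of these than on any of the 8. These arrays had been set apart by a dim brightest probe set, so that count is a description. Ndufb8, named above, was the member of this list whose groups did not overlap, and Ndufa5 and Ndufs4, also of complex I, were higher by 0.43 and 0.35.

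Cytosolic ribosomal proteins showed the same array pattern in a wider form. Of 44 measured genes, 43 had a positive difference and the median was 0.24, with 8 higher at an unadjusted p under 0.05 and 0 lower. The list stood at -0.33 and -0.30 on oxygen 5 and 7 and at -0.26 on isoflurane 9, against 0.11 to 0.20 on the other oxygen arrays and 0.29 to 0.43 on the other isoflurane arrays. Quantile normalization, which makes all arrays share one distribution, lowered the median from 0.24 to 0.11, and the oxidative phosphorylation median from 0.15 to 0.07. With the mean 3'/5' ratio as a covariate the medians were 0.072 and 0.063. Rpl37a had the lowest p, with 13.43 ± 0.19 (SD, n = 6) under oxygen and 13.87 ± 0.27 (SD, n = 5) after isoflurane. Rpl4 and Rps9 were higher by 0.29 and 0.34.

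Of 47 proteasome subunits, 43 had a positive difference, 13 were higher at an unadjusted p under 0.05 and 1 was lower, with a median of 0.15 (0.13 after quantile normalization and 0.093 with the 3'/5' ratio as a covariate). Psmd7, a lid subunit, did not overlap between the groups, with a lowest, median and highest signal of 11.07, 11.23 and 11.37 under oxygen and 11.46, 11.43, 11.45, 11.48 and 11.60 after isoflurane. Here replicate 9 was the highest isoflurane array. Psmc1, an ATPase of the base, was higher by 0.32 (SE 0.09) and Psmb1, a core subunit, by 0.25 (SE 0.09), and in both replicate 9 lay inside the oxygen range.

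Oxidative stress genes were higher in 31 of 36 cases, 7 at an unadjusted p under 0.05 and 0 lower, with a median of 0.10. Gsr, glutathione reductase, was at 7.66 ± 0.31 (SD, n = 5) after isoflurane and 7.07 ± 0.35 (SD, n = 6) under oxygen, a difference of 0.59 (SE 0.20) in which the groups overlapped. Nqo1, a quinone reductase, and Sod1, the copper-zinc superoxide dismutase, were higher by 0.31 and 0.24. Endoplasmic reticulum chaperone and stress genes were mixed, with 5 higher and 2 lower of 33 and a median of 0.07. Hspa5, the chaperone BiP, stood at 12.31, 12.42, 12.53, 12.29 and 11.93 after isoflurane, against 11.93, 12.04 and 12.20 under oxygen, so 4 isoflurane arrays lay above all oxygen arrays and replicate 9 beside the lowest of them. Pdia4, a disulfide isomerase, did not overlap (0.31, SE 0.09), and Syvn1, a ubiquitin ligase of the same compartment, differed by -0.45 (SE 0.14). Splicing factors and hnRNPs had a median of 0.10 over 63 genes with 5 higher and 5 lower, among them Raver1 at -0.88 and Hnrnpul1 at -0.47.

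**Figure D4:**
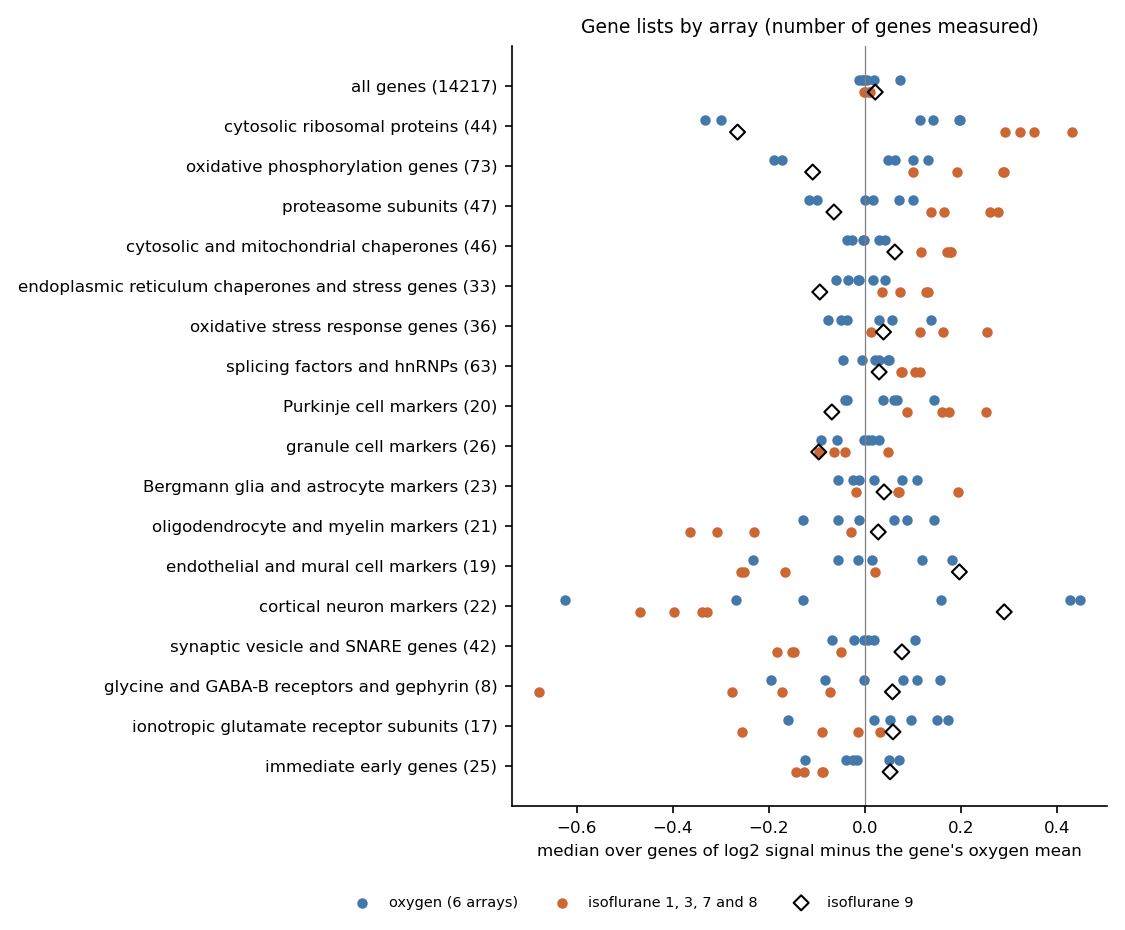
Gene lists by array: each point is one array's median, over the list's genes, of log2 signal minus the gene's mean over the 6 oxygen arrays, with the number of genes measured in parentheses. Blue points are oxygen arrays, orange points isoflurane replicates 1, 3, 7 and 8, and open diamonds isoflurane replicate 9; the 44 ribosomal protein genes part at -0.33 to -0.26 for 3 arrays and 0.11 to 0.43 for the other 8.

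Receptors and channels that isoflurane acts on were read by family, together with GABA-B receptor, synaptic anchor and synaptic vesicle genes. Of 16 GABA-A receptor subunits 1 was higher at an unadjusted p under 0.05 and 0 were lower, with a median of 0.15. The median's sign was not stable: it was -0.15 with the mean 3'/5' ratio as a covariate, -0.28 when replicate 9 was left out as well, and -0.0024 without the 3 arrays of the dim bright end. The higher member was Gabra6, at 13.95, 14.01, 14.10, 13.94 and 13.47 after isoflurane and 13.40, 13.58 and 13.84 under oxygen, a difference of 0.30 (SE 0.13, limma adjusted p = 0.484) in which replicate 9 lay low within the oxygen range. Gabrg1 and Gabra5, the next 2 by p, differed by 0.35 (SE 0.29) and -0.50 (SE 0.54). Of 8 genes of glycine and GABA-B receptors and their anchors, 3 were lower at an unadjusted p under 0.05 and 0 higher, with a median of -0.34. These 3 were Nlgn2, named above, Gabbr2 and Gabbr1, so no glycine receptor gene was among them. Gabbr2, the GABA-B subunit that couples to G proteins, stood at 11.07, 11.05, 11.25, 10.89 and 11.63 after isoflurane and at 11.50, 11.72 and 11.76 under oxygen, a difference of -0.50 (SE 0.12). Gabbr1, its ligand-binding partner, differed by -0.27 (SE 0.11), and 1 of its 3 other probe sets had the opposite sign.

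Of 17 ionotropic glutamate receptor subunits 4 were lower and 0 higher at an unadjusted p under 0.05. Grin1, the obligate NMDA receptor subunit, stood at 10.60, 10.54, 10.28, 10.56 and 11.08 after isoflurane and at 10.78, 11.06 and 11.20 under oxygen, a difference of -0.41 (SE 0.13). Grin2c, the NMDA subunit of mature granule cells, differed by -0.59 (SE 0.17) and the kainate receptor subunit Grik5 by -0.63 (SE 0.20). In all 3 the value on replicate 9 lay within the oxygen range and the other 4 isoflurane arrays below it. Of 14 K2P potassium and HCN channel genes 1 was lower, Kcnk3 (the TASK-1 channel), at -0.55 (SE 0.20) with 1 of its 2 other probe sets of opposite sign, and Hcn2 and Kcnk1 differed by -0.41 and 0.21. Of 42 synaptic vesicle and SNARE genes 7 were lower and 0 higher, with a median of -0.13. Syn1, synapsin, stood at 10.88, 10.76, 10.72 and 10.81 on 4 isoflurane arrays, while replicate 9 lay above the oxygen highest of 11.91. Syngr3 and Syt3 differed by -0.39 and -0.59.

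Cell type markers were read for the whole list. Granule cell markers had a median of -0.04 over 26 genes, with 1 higher and 4 lower at an unadjusted p under 0.05. Neurod2, a neuronal transcription factor, stood at 9.16, 9.36, 9.22, 9.49 and 10.01 after isoflurane and at 9.76, 9.97 and 10.29 under oxygen. Grm4, the metabotropic receptor of parallel fibre terminals, differed by -0.65 (SE 0.20). Purkinje cell markers had a median of 0.09 with 15 of 20 higher and 0 at an unadjusted p under 0.05 on either side, Homer3 differing by -0.21, Ppp1r17 by 0.12 and Pde5a by 0.31. The list of inhibitory interneuron and unipolar brush cell markers had 1 higher (Pvalb, parvalbumin, 0.30) and 1 lower (Tfap2b, -0.41) of 16, with Grm2 at -0.32. Of 23 Bergmann glia and astrocyte markers 18 were higher and 0 reached an unadjusted p under 0.05, with Gja1, Gjb6 and Acsbg1 at 0.18, 0.27 and 0.16. The median of this list was 0.086, and it was -0.010 after quantile normalization and 0.029 with the 3'/5' ratio as a covariate. The Purkinje cell median was 0.012 after quantile normalization.

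Myelin and oligodendrocyte markers were lower in 15 of 21 cases, 7 at an unadjusted p under 0.05 with 1 higher, and the median was -0.18. Array by array they stood at -0.36, -0.31, -0.03, -0.23 and 0.03 after isoflurane and from -0.13 to 0.14 under oxygen. Cnp, an enzyme of myelin, differed by -0.24 (SE 0.09). Of 17 microglia markers 1 was higher, C1qb, a complement subunit, at 0.43 (SE 0.15), with Tmem119 at -0.43 and Ctss at 0.29. Of 19 endothelial and mural cell markers 0 reached an unadjusted p under 0.05 and 16 were lower, with Nostrin at 0.31, Esam at -0.22 and Pecam1 at -0.23.

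Cortical neuron markers were lower in 18 of 22 cases, 3 at an unadjusted p under 0.05 and 0 higher, with a median of -0.34. With the mean level of the defining members as a covariate the median was -0.06. That covariate is the mean of members of this same list, so a smaller median follows from how it was built. The value of -0.06 is therefore no test of what lay behind the difference. Camk2a, a kinase of forebrain excitatory synapses, was at 9.43, 7.49, 7.26, 9.46, 9.01 and 9.89 on oxygen replicates 5 to 10 and at 7.47, 5.91, 6.64, 6.55 and 9.19 after isoflurane. The difference of -1.60 (SE 0.59, limma adjusted p = 0.454) thus came with 5 arrays above 9, 4 of them oxygen and 1 isoflurane replicate 9. Cux2, of upper-layer neurons, differed by -0.57 and Dkk3 by -0.24, with 1 of 2 other Dkk3 probe sets of opposite sign. Choroid plexus, blood and brainstem markers had 0, 0 and 1 member at an unadjusted p under 0.05. Ttr, the abundant transcript of choroid plexus, ran from 7.70 to 13.71 under oxygen and from 9.30 to 13.66 after isoflurane, a spread far larger than its difference of -0.28 (SE 1.02).

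Clock, activity and hormone-response genes are listed beside shares of 4.04% higher and 7.21% lower over all genes. With lists this short, their counts are a description. Nr1d1, the clock repressor REV-ERB alpha, stood at 9.22, 9.03, 8.90, 9.28 and 9.68 after isoflurane and at 9.53, 10.07 and 10.22 (lowest, median and highest) under oxygen. Its difference was -0.76 (SE 0.15, limma adjusted p = 0.373), with 4 isoflurane arrays below all oxygen arrays and replicate 9 inside. Of 23 clock genes 2 were lower and 0 higher, Csnk1d at -0.28 being the other (2 of its 4 other probe sets had the opposite sign), and Npas2 differed by -0.66 (SE 0.31). Of 25 immediate early genes 2 were lower and 1 higher. Egr1 and Arc, markers of recent neuronal activity, differed by -0.41 (SE 0.16) and -0.30 (SE 0.12). Fbxo33 differed by 0.18, with 1 of its 2 other probe sets of opposite sign. Fos ran from 7.33 to 10.59 under oxygen and from 7.04 to 9.48 after isoflurane. Of 20 glucocorticoid-induced genes 2 were higher and 4 lower. Mt2A, a metallothionein, differed by 0.44 (SE 0.13), Klf15 by -0.45 (SE 0.13) and Nfkbia by -0.32 (SE 0.11), while Fkbp5 and Sgk1 differed by -0.22 and -0.09. The other Fkbp5 probe set had the opposite sign.

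The remaining lists held from 1 to 6 such genes each, beside the same shares over all genes, and their counts are likewise a description. Of 36 clathrin endocytosis genes 2 were higher and 4 lower. Cltc, the clathrin heavy chain, did not overlap, with 12.92, 12.92, 13.06, 12.88 and 12.76 after isoflurane and at most 12.76 under oxygen, replicate 9 lying just above that value, while Epn1, epsin, differed by -0.85 (SE 0.36), Fcho1 by -0.87 and Hip1 by -0.37. Epn1 was highest on oxygen replicates 5 and 7 and isoflurane replicate 9, at 10.90, 10.79 and 10.55, and at most 9.97 on the other 8 arrays. Of 22 glycolytic genes 0 were higher and 2 lower, with Slc2a3 at -0.26 (its other probe set had the opposite sign), Pfkl at -0.43 and Tpi1 at 0.22. Of 25 Bcl2 family and caspase genes 2 were higher (Bad and Bnip3l, 0.20 and 0.17) and 1 lower (Bak1, -0.80). Of 28 amyloid precursor, secretase and tau genes 1 was lower, the tau kinase Mark2 at -0.67 (SE 0.28), with Aplp1 at -0.31 and Adam10 at 0.43.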

How the data were processed

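Total RNA from tissue labelled brain cortex was hybridised as biotinylated cRNA to Affymetrix rat arrays, one per rat. The deposited values were linear intensities. The submitters' processing notes name MAS5 and, beside it, Affymetrix Expression Console, with versions not given in the sources used here. Values under 1 were raised to 1, log2 was taken, and 31042 non-control probe sets were fitted with limma 3.58.1 in R 4.3.3 (lmFit, then eBayes with a trend on mean signal, two-sided p, Benjamini-Hochberg) in the 11 arrays. Platform annotation named 20826 probe sets by 1 symbol and 436 by several, left 9780 unnamed, and symbols were updated through RefSeq's GRCr8 gene table.

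The members, the 30 gene lists and the named genes' rule were chosen with earlier results of these data known. The rule took up to 12 genes per direction whose groups did not overlap, the 3 lowest p per list (none for choroid plexus, blood and brainstem), 18 genes named in advance (of which Kcnk9 was too dim and another is not reported here) and 8 per direction for replicate 9, all above the 40th percentile of mean signal. Of 929 listed symbols, 130 had no probe set with 1 symbol. The fitting code was tested on simulated data. Alternatives were other normalizations, pseudocounts, filters, weights, covariates and left-out arrays. Python 3.11.15 was used otherwise (scipy 1.17.1, numpy 2.4.6, pandas 2.3.3, plots by matplotlib 3.10.9). The number of arrays limits the precision.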

Additional observations from a re-analysis of the deposited data

Results flagged for a closer look

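Values on single arrays that stood far from the rest of their group by Dixon's criterion were found in 12 of 88 tests. Several of the flagged genes were chosen by their values, and the tests share arrays, so the count is a description without a chance rate beside it. Oxygen replicate 10 was low for Gulp1 (8.91), Mybl1 (7.96), Eif4a1 (10.54) and Snrpb2 (8.42) and high for Nalf2 (9.86) and Fkbp5 (9.29). Isoflurane replicate 9 was high for the GAPDH 3'/5' ratio (0.46, log2) and the cortical marker level (8.60) and low for Mybl1 (8.91), Gabra6 (13.47) and Frg1 (7.81). Oxygen replicate 7 was low for Ttr (7.70). Without oxygen replicate 10 and the trio with the dim bright end, limma called 304 probe sets.

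A difference between the 11 and the other 9 arrays in isoflurane minus oxygen passed the interaction threshold in limma for 12 of the 121 genes that the naming rule took. Of all 31042 probe sets, 2226 passed it (7.17%). Most were named for their difference in the 11 arrays, which the interaction contains, so the values are a description. It was 1.14 for Gulp1, 0.78 for Tvp23b, -1.03 for Abca7, -1.23 for Nav2, -1.67 for Nlgn2, -1.60 for Col27a1 and -1.02 for Mtcl2 on the log2 scale. It was also 2.01 for Pde5a, -1.22 for Neurod2, 0.68 for Mt2A, 0.43 for Psmd7 and -1.33 for Wiz. Tet3 and Ncam1, named outside the rule, passed the threshold too, at -1.71 and -0.95. The 3'/5' ratios of 4 isoflurane arrays among the 9 differed from the rest, and their part in these values was not tested.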

How the results depend on the processing

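The comparison in the 11 arrays gave 0 calls in limma, and array weights gave 16, the spread from all 20 arrays 1 and leaving out single arrays 0 to 702, with 702 only without isoflurane replicate 9. Alternatives chosen after seeing the data gave 174 without the 3 arrays of dim bright end, 304 without these and oxygen replicate 10, and 2062 with the cortical marker level as a covariate and replicate 9 left out. The difference between array sets had 3580 calls after median centring and 1157 to 4992 with single arrays left out. Non-overlapping probe sets numbered 343 to 2264 with single arrays left out, the highest without isoflurane replicate 9; a smaller group separates more easily. The cause of these differences was not tested.

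Replicate numbers 7, 8 and 9 occur in both groups. The deviations of same-numbered arrays correlated at -0.16, 0.17 and -0.37, so the numbers were not taken as pairs, and no array correlated best with its own number. A fit with the number as a block gave 0 calls.

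Signs turned for genes whose differences did not pass the test. The replicate block gave -0.0099 for Pde5a, 0.31 for Fos, 0.019 for Fkbp5 and 0.23 for Ttr. The 3'/5' ratio as a covariate gave -0.067 for Gabrg1 and 0.047 for Ttr, and without replicate 9 -0.11 for Gabrg1, 0.36 for Fos and 0.022 for Sgk1. The cortical level gave 0.19 for Gabra5 and 0.42 for Ttr, and without replicate 9 0.27 for Gabra5, 0.00388 for Sgk1, -0.012 for Hspa1a and 0.17 for Ttr. Both covariates gave -0.011 for Pde5a, -0.13 for Gabrg1, 0.12 for Gabra5, 0.68 for Ttr and -0.041 for Far1. Without the 3 arrays of dim bright end Fos was at 0.10 and Hspa1a at -0.019, and without oxygen replicate 10 as well Fos was at 0.067 and Sgk1 at 0.011. With single arrays left out, Fos ran from -0.81 to 0.021, Hspa1a from -0.072 to 0.12 and Ttr from -1.15 to 0.35.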
